A study of Mus musculus with 4 samples.

Results

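Gene expression of single CD45+ cells was compared between melanomas in which IRF3 and IRF7 had been overexpressed in the cancer cells and melanomas that carried a control vector. Cells were assigned by library. The IRF3/7 library held 6329 cells and the CTRL library 8953, of the 34447 cells of 4 libraries. Both groups were YUMM1.7-OVA RTT tumours, grown from a mouse melanoma line with mutant Braf and without Cdkn2a, which makes ovalbumin and had acquired therapy resistance. IRF3/7 cells carried a vector for IRF3 with an mCherry reporter and a vector for IRF7 with puromycin resistance, and they had been selected and sorted as a bulk population, not as a clone. CTRL cells carried an empty vector with mCherry and the same resistance gene. The tumours grew in Rag2-/- mice, which make no T or B cells of their own but keep NK and myeloid cells, and OT-1 CD8+ T cells specific for ovalbumin were transferred on day 7. CD45+ cells were sorted on day 10, which was 72 h later. Each library was a pool of 3 tumours, with 1 library per group. The design therefore allowed no test of the conditions, and p-values are absent. The COX2i library (celecoxib) and the COX2i + 5-AZA library (celecoxib and 5-azacitidine) are given beside these only for single genes and for the summed level of some gene lists.

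IRF3 and IRF7 are transcription factors that nucleic acid sensors activate through phosphorylation, after which they enter the nucleus and switch on interferon and antiviral genes. Secreted type I interferon then acts on neighbouring cells through its receptor and a complex that holds STAT2 and IRF9. That complex induces Irf7 itself, so endogenous Irf7 is an interferon-stimulated gene, whereas Irf3 is expressed constitutively and is not one. Both routes bind elements built around repeats of the bases GAAA.

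Stretches of the promoters of 6 interferon-regulated genes are shown because they hold this element and because the genes carry the results that follow. The letters searched were GAAANNGAAA on both strands, so a match on the other strand reads as TTTC repeats, and neighbouring matches may overlap. Each stretch lies upstream of the transcription start in RefSeq on GRCm38.p6, is written 5′ to 3′ along the gene, and has the matches in capitals. The stretch of Isg15 is chr4:156200845-156200926 (minus strand), that of Ifit1 chr19:34640755-34640843 (plus strand), that of Ifit3 chr19:34583343-34583446 (plus strand), that of Rsad2 chr12:26456533-26456602 (minus strand), that of Stat2 chr10:128270248-128270315 (plus strand) and that of Cxcl10 chr5:92349063-92349132 (minus strand).
Isg15: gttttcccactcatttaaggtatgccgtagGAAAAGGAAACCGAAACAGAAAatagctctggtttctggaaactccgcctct
Ifit1: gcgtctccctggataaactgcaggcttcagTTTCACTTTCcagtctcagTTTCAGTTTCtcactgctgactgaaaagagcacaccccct
Ifit3: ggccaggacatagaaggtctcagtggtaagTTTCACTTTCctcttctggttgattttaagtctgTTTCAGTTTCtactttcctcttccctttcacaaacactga
Rsad2: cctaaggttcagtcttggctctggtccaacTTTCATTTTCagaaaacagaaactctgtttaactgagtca
Stat2: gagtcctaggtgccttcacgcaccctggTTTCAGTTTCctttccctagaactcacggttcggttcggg
Cxcl10: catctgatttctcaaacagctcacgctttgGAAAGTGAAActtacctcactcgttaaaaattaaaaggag
Isg15 held 3 overlapping matches that began between 78 and 66 bases before the start. Ifit1 and Ifit3 held 2 each, and the other 3 genes held 1 each. A window of 300 bases was at hand for 21 genes on a list of 32. The 6 genes above and Spp1, a gene of tumour macrophages, were those with a match in the 250 bases before the start. The remaining 14, among them Irf7, Irf3, Irf1, Oasl1, H2-K1, Tap1, Psmb9, Cd274 and Ptgs2, had none there. Matches that reached past the start were not counted for these genes. A match describes letters only.

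UMIs were summed over the cells of each annotated class and divided by their total, and they are given as CPM (counts scaled to a total of 1e6). Differences are log2 ratios of CPM, IRF3/7 over CTRL, with exact 95% intervals that cover counting error only. A gene entered a class at a mean of 20 CPM over both libraries and was counted as past the fold at a ratio of 2 in either direction. A gene that is low in CTRL can enter only by being high in IRF3/7, so counts and medians of a list describe the genes that entered. For lists rich in such genes, the members with at least 20 CPM in CTRL itself are given too. Of 17 annotated classes, 3 had at least 50 cells in both libraries. Myofibrobl, the non-immune cells left after the sort, had 554 CTRL and 172 IRF3/7 cells. cDC2, a class of conventional dendritic cells, had 645 and 390, and Infl_Mono, inflammatory monocytes, had 93 and 4335. Together they held 14.4% of CTRL and 77.4% of IRF3/7 cells. Neutro, with 65 and 49 cells, fell just short. The IRF3/7 library was shallower, with a median of 3168 against 6151 UMIs per cell over all cells. Within Myofibrobl the order was the opposite, at 20862.5 against 15007.5. The libraries shared 717 droplet barcodes, and other pairs of the 4 libraries shared 736 to 1165. Without the cells in shared droplets, the counts of genes 2-fold or more higher and lower, given below for all cells, were 408 and 528 in Myofibrobl, 453 and 791 in cDC2 and 405 and 735 in Infl_Mono. The classes were the authors' clusters of the same expression values, so the genes that define a class also chose its cells.

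Irf7 and Irf3 were examined first. In Myofibrobl, Irf7 on chromosome 7 (141262706 to 141266481 on GRCm38, minus strand, ENSMUSG00000025498) was measured at 8.20 CPM in CTRL and 14909 CPM in IRF3/7, and at 19.2 and 67.1 CPM in COX2i and COX2i + 5-AZA. The IRF3/7 library was far above the other 3 (log2 ratio 10.83 over CTRL, 10.51 to 11.17). Irf3, also on chromosome 7 (44997648 to 45002848 on the plus strand, ENSMUSG00000003184), was measured at 31.2 and 584 CPM in CTRL and IRF3/7, and at 35.1 and 24.5 CPM in the other libraries, a log2 ratio of 4.22 (4.05 to 4.40). Myofibrobl made up 2.72% of IRF3/7 cells and held 51.1% of that library's Irf7 UMIs and 71.8% of its Irf3 UMIs. A total of 170 of the 172 cells had an Irf7 UMI, with a median of 277.5 UMIs per cell. The highest of the 554 CTRL cells reached 716 CPM, and 163 of the 172 IRF3/7 cells (94.8%, 90.3 to 97.6) were above it. The class name refers to stroma, whereas the vectors had been given to the cancer cells. The annotation had no class of cancer cells, and the pigment genes Dct, Mlana, Tyr and Tyrp1 were not analysed here. The class is therefore called by its annotated name, without a statement on which non-immune cells it holds. Whether its CTRL and IRF3/7 cells were the same mix of cells was not tested.

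In the immune classes Irf7 differed and Irf3 did not detectably. In cDC2, Irf7 stood at 97.0 CPM in CTRL and 2930 CPM in IRF3/7 (log2 ratio 4.92, 4.74 to 5.10), and Irf3 at 45.6 and 48.8 CPM (0.10, -0.36 to 0.54). In Infl_Mono, Irf7 stood at 1295 and 3354 CPM (1.37, 1.26 to 1.49) and Irf3 at 28.9 and 43.7 CPM (0.60, -0.16 to 1.48). In the Infl_Mono cells without a UMI of the macrophage gene Fcrls, a set described below, Irf7 stood at 644 and 3359 CPM (2.38, 2.06 to 2.72), and Irf3 had 2 CTRL UMIs (1.39, -0.47 to 4.44). The intervals of Irf3 included 0 in both classes. UMIs of Irf7 per UMI of Irf3 in the IRF3/7 library numbered 25.5 in Myofibrobl, 60.0 in cDC2 and 76.7 in Infl_Mono. In CTRL they numbered 0.26, 2.13 and 44.8. Both immune classes of the IRF3/7 library thus held more Irf7 per Irf3 than Myofibrobl. The NK_cells class (568 IRF3/7 cells) held less, at 14.6. The part of free RNA in the Irf7 level of the immune classes was not tested. The 8 cells named T_CD8 held 10 Irf7 and 6 Irf3 UMIs.

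**Figure D1:**
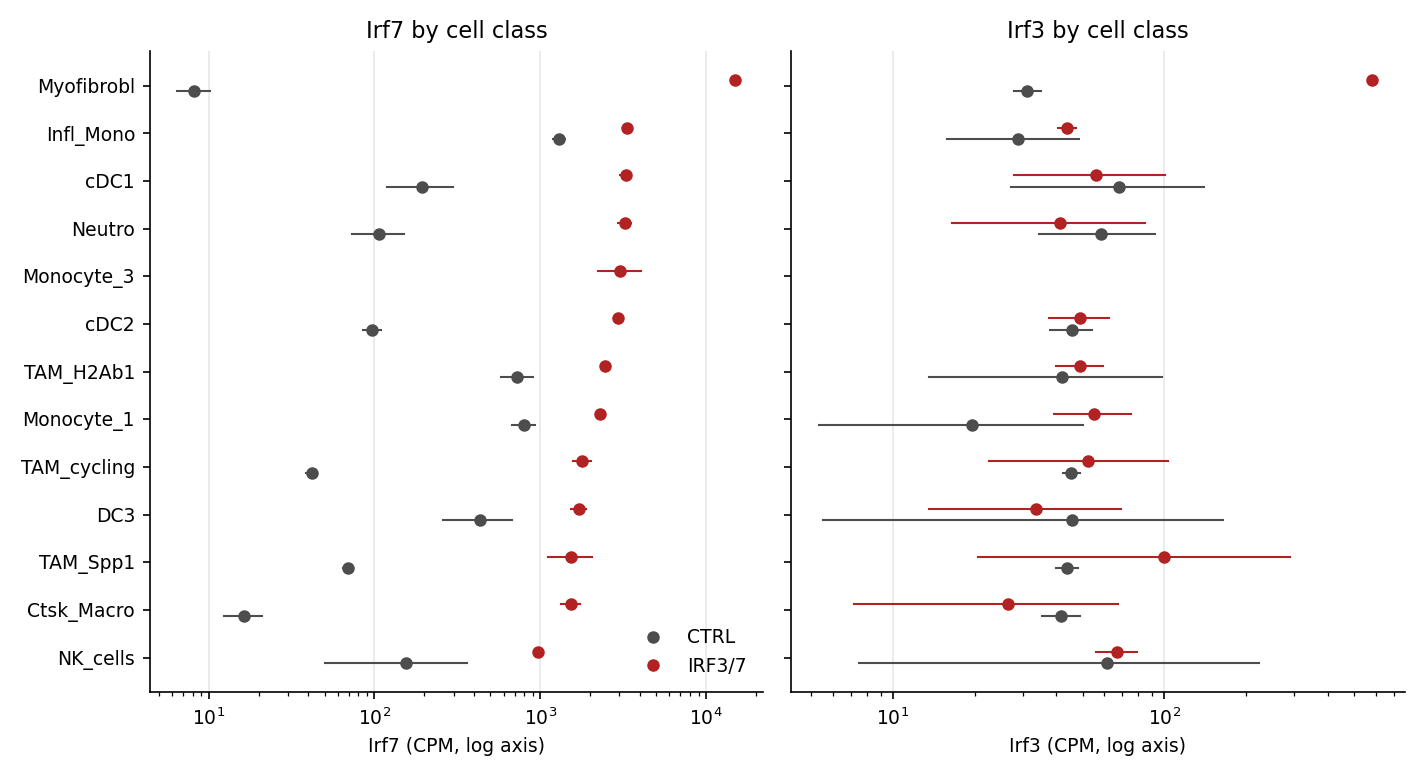
Irf7 and Irf3 (CPM, log axes) in each annotated class with at least 10 cells in a library, CTRL in grey and IRF3/7 in red, with lines for the exact Poisson 95% intervals of the UMI sums; a gene with no UMI is not drawn. Irf7 was higher in IRF3/7 in all classes drawn for both libraries, and Irf3 stood apart in Myofibrobl, at 584 CPM against 31.2 CPM.

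In Myofibrobl, antiviral genes, guanylate-binding proteins and MHC class I genes were higher in IRF3/7, part of the cell cycle and amino acid response genes were lower, and matrix genes went both ways. Of 7598 genes entered, 392 (5.16%) were 2-fold or more higher and 545 (7.17%) were 2-fold or more lower. The median log2 ratio of all genes was -0.26, so ratios are read against that value. With median-of-ratios size factors, which set this median to 0, the higher genes made up 67.9% of those past the fold in place of 41.8%. Of 37 antiviral effectors, 32 entered and 32 were past the fold upward, with a median log2 ratio of 4.95. For 21 of them the entry level itself required a ratio over 2. The 8 with at least 20 CPM in CTRL were all upward, with a median of 2.79. The summed level of the list, which needs no entry level, was 1008 CPM in CTRL and 14962 CPM in IRF3/7. COX2i and COX2i + 5-AZA lay between, at 1423 and 2823 CPM.

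Isg15, a ubiquitin-like modifier, stood at 15.2 CPM in CTRL, 1601 CPM in IRF3/7, 62.6 CPM in COX2i and 146 CPM in COX2i + 5-AZA. Its log2 ratio was 6.72 (6.49 to 6.97). Ifit1, which binds viral RNA with an unmethylated cap, stood at 0.726, 325, 13.1 and 28.4 CPM in the same order, a log2 ratio of 8.81 (7.76 to 10.12). It had a UMI in 133 of the 172 IRF3/7 cells and in 5 of the 554 CTRL cells. Ifit3, its partner, stood at 3.22, 964, 23.3 and 43.3 CPM (8.23, 7.72 to 8.79). The IRF3/7 library was the highest of the 4 for each of these. Rsad2, which makes a chain-terminating nucleotide, stood at 2.18 and 236 CPM (6.76, 6.14 to 7.46). The 10 genes with the largest rise, among those with at least 50 CPM in the higher library and at least 200 UMIs in both together, were Irf7, Ifi44, Iigp1, Ifit1, Cmpk2, Ifit3b, Ifit3, Usp18, Tgtp2 and Gbp2. Usp18, which removes ISG15 and dampens the interferon receptor, stood at 1.97 and 396 CPM. Irf7 is also the gene on the vector, and the other 9 are known as interferon-regulated genes.

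Guanylate-binding proteins and immunity-related GTPases, which attack the vacuoles of pathogens and respond most to interferon-γ, stood at 60.9 CPM in CTRL and 4187 CPM in IRF3/7 in sum. All 15 that entered were past the fold upward (median log2 ratio 6.18), but none had 20 CPM in CTRL, and for 14 the entry level required it. Gbp2 stood at 8.20 CPM in CTRL, 1192 CPM in IRF3/7, 140 CPM in COX2i and 859 CPM in COX2i + 5-AZA (7.18, 6.86 to 7.52 for IRF3/7 over CTRL). Iigp1 stood at 1.35, 679, 28.7 and 232 CPM (8.97, 8.20 to 9.89). For this group COX2i + 5-AZA came closer to IRF3/7 than for the IFIT genes, with a summed level of 2381 CPM. Copies that share sequence, such as Tgtp1 and Tgtp2, Ifit3 and Ifit3b, the Gbp genes, Slfn4, Ly6a and Ly6i, and the H2 genes, were not checked for probes that bind more than 1 of them.

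Genes of MHC class I presentation were past the fold upward for 15 of 20 entered and downward for none, with a median log2 ratio of 2.96. Of the 10 with at least 20 CPM in CTRL, 5 were upward and none downward (median 1.59). H2-K1, a class I heavy chain, stood at 54.2 and 768 CPM (3.83, 3.69 to 3.96) and Tap1, which carries peptides into the endoplasmic reticulum, at 7.78 and 198 CPM (4.67, 4.33 to 5.03). Psmb9, a subunit of the immunoproteasome, stood at 11.4 and 143 CPM (3.65). Nlrc5, the transactivator of class I genes, stood at 4.57 and 124 CPM (4.77). Canx, a chaperone on the list, went the other way, at 233 and 181 CPM (-0.37). MHC class II genes had a median of -0.94, with none of 9 past the fold upward and 2 downward. Cd74, the invariant chain, stood at 372 and 194 CPM in Myofibrobl and at 3978 and 6785 CPM in all other cells of each library.

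Of 21 nucleic acid and pattern sensors entered in Myofibrobl, 11 were past the fold upward and 1 downward, but of the 10 with at least 20 CPM in CTRL only 1 was upward and 1 downward (median -0.18). Ifih1 and Dhx58, cytosolic sensors of double-stranded RNA, stood at 6.85 and 190 CPM (4.79) and at 5.92 and 117 CPM (4.30). Tlr2, a sensor of bacterial lipoproteins, was lower, at 31.8 and 12.5 CPM (-1.35). Stat2, of the interferon receptor's signalling complex, stood at 7.47 and 209 CPM (4.81), and Irf9 at 12.5 and 85.6 CPM (2.78). Irf1, which responds to interferon-γ, stood at 137, 359, 216 and 632 CPM in the 4 libraries, so that COX2i + 5-AZA and not IRF3/7 was the highest. Only 6 of 19 interferon signalling genes were past the fold upward, and their median was 0.18, with the receptor genes Ifnar1 (-0.21), Ifnar2 (0.00) and Ifngr1 (-0.39) and the kinase Jak1 (-0.13) under 2-fold.

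Chemokines of Myofibrobl went both ways, with 3 of 8 past the fold upward and 2 downward, and all 8 had at least 20 CPM in CTRL. Inflammatory cytokines gave 4 of 12 upward and 2 downward, or 1 and 2 of the 9 with at least 20 CPM in CTRL (median -0.16). Co-stimulation and checkpoint genes gave 3 of 7 upward and 2 downward, or none and 2 of the 4 with at least 20 CPM in CTRL. Cxcl10, a ligand of CXCR3 on T and NK cells, stood at 20.1, 456, 51.4 and 470 CPM in CTRL, IRF3/7, COX2i and COX2i + 5-AZA (4.50 for IRF3/7 over CTRL, 4.29 to 4.72). The monocyte chemoattractants Ccl2 and Ccl7 stood at 190 and 1249 CPM (2.72) and at 70.5 and 639 CPM (3.18). Cd274, which encodes PD-L1, stood at 4.46 and 58.2 CPM (3.71, 3.24 to 4.21). Il6, an inflammatory cytokine, had a log2 ratio of 3.66 (3.16 to 4.20). Among the lower members were Cxcl16, a membrane-bound chemokine (37.1 and 5.80 CPM, -2.68), S100a9, an alarmin of neutrophils and monocytes (111 and 28.8 CPM, -1.95), and Vsir, the checkpoint VISTA (53.2 and 19.4 CPM, -1.46). Of 7 prostaglandin genes entered, 3 were past the fold upward and 1 downward. Ptgs2, which encodes COX2, stood at 861 CPM in CTRL, 3436 CPM in IRF3/7, 457 CPM in COX2i and 653 CPM in COX2i + 5-AZA (2.00, 1.96 to 2.04). Ptges, the synthase that makes prostaglandin E2 from its product, stood at 310 and 1187 CPM (1.93), and Ptgs1 at 167 and 457 CPM (1.45). Alox5ap, of the leukotriene branch, was lower at 87.3 and 21.9 CPM.

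**Figure D2:**
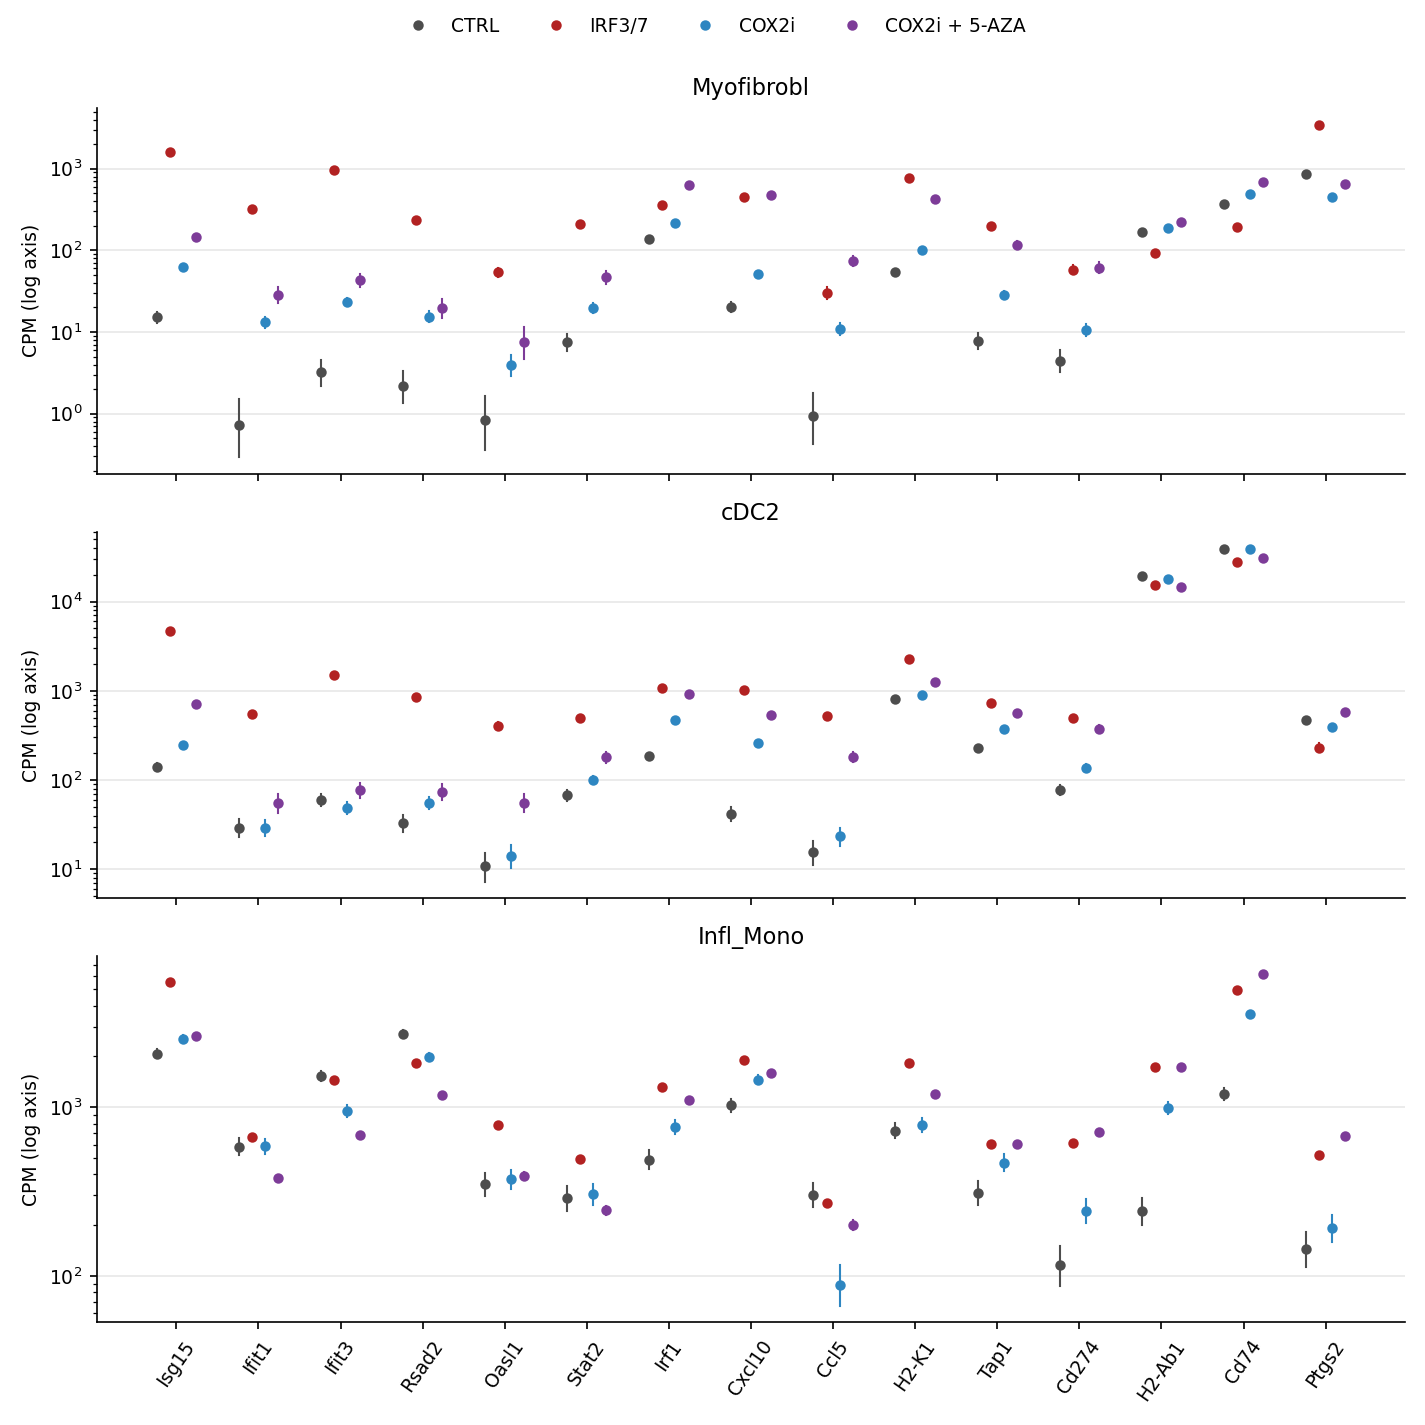
CPM (log axes) of named genes in Myofibrobl, cDC2 and Infl_Mono, for the CTRL, IRF3/7, COX2i and COX2i + 5-AZA libraries, with lines for exact Poisson 95% intervals. In Myofibrobl and cDC2 Ifit3 stood highest in IRF3/7 (964 and 1518 CPM), whereas Ptgs2 was highest there in Myofibrobl and lowest there in cDC2.

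Matrix genes of Myofibrobl moved in both directions, with 5 of 29 past the fold upward, 5 downward and a median of 0.06. Tnc, the matrix protein tenascin C, stood at 185 and 1754 CPM (3.25) and Thbs2, a thrombospondin, at 161 and 1416 CPM (3.13). Thbs1, its homologue, was listed with the macrophage genes and stood at 301 CPM in CTRL, 3625 CPM in IRF3/7, 256 CPM in COX2i and 516 CPM in COX2i + 5-AZA (3.59, 3.53 to 3.65). Fn1, fibronectin, stood at 8976 and 1285 CPM (-2.80), Col1a2 at 4772 and 1983 CPM (-1.27) and Postn at 56.7 and 6.24 CPM (-3.18). Col1a2 is also a defining marker of the class, so the markers were not all at similar levels. Other markers differed less, with Col18a1 at 2287 and 2386 CPM, Col6a3 at 2326 and 2511 CPM and Sparc at 1475 and 1745 CPM. Among the 10 largest falls were Dmp1, a matrix phosphoprotein (670 and 21.4 CPM, -4.97), Gadd45a, a growth arrest gene (500 and 35.9 CPM, -3.80), Col7a1 (90.7 and 7.36 CPM, -3.62) and Ncam1 (213 and 17.4 CPM, -3.61).

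Some proliferation genes of Myofibrobl were lower. Of 19 S phase genes 12 were past the fold downward and none upward (median -1.13), and of 26 G2/M genes 9 were downward and none upward (median -0.89). With size factors 6 of 19 and 3 of 26 were downward, and in cells thinned to 1500 UMIs 5 of 20 and 5 of 25, with none upward in either. Mcm5, of the replicative helicase, stood at 91.8 and 29.7 CPM (-1.63), and Mki67 at 190 and 66.5 CPM (-1.52). Genes of the amino acid and ER stress response gave 4 of 20 downward, namely Trib3 (129 and 18.7 CPM, -2.79), Asns, asparagine synthetase (372 and 84.5 CPM, -2.14), Chac1 (64.4 and 26.5 CPM, -1.28) and Herpud1 (99.2 and 46.4 CPM, -1.10). The median of that list was -0.16, and it was 0.11 with size factors. MAPK targets gave 3 of 18 upward and 1 downward, which was Etv5 (196 and 93.0 CPM, -1.07). Among the upward ones were Ier3 at 602 and 2868 CPM (2.25) and Spry2, a feedback inhibitor of the pathway, at 167 and 468 CPM (1.49). In the cell death list 5 of 19 were upward and none downward, or 2 of the 16 with at least 20 CPM in CTRL (median 0.10). The inflammatory caspase Casp4, at 11.0 and 51.5 CPM (2.23), entered only through IRF3/7. Cholesterol genes (0 of 23) and the 8 melanoma and neural crest genes had none past the fold, with medians of -0.05 and -0.04 that were 0.21 and 0.22 with size factors. The respiratory chain had none upward and 2 of 31 downward.

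RNA of other cells was measured beside these values. In the IRF3/7 library, leukocyte genes stood in Myofibrobl at a low share of their level in all other cells of that library, which was 2.15% for Tyrobp, 2.11% for Ptprc, 1.88% for C1qa, 3.33% for Plac8 and 0.417% for Gzma. For Ifit1 the share was 60.2%, for Ifit3 78.2%, for Isg15 34.8%, for Gbp2 82.1%, for Iigp1 217% and for Ptgs2 805%. For Ccl5, a chemokine of leukocytes, it was 4.75%. In CTRL the shares were 6.56% for Tyrobp, 8.05% for Ptprc, 6.17% for C1qa, 11.7% for Plac8 and 4.05% for Ccl5, and Gzma had no UMI in CTRL Myofibrobl. Among the 10 largest falls in Myofibrobl were Fcrls, Pf4, Mrc1 and Stab1, all macrophage genes, with Fcrls at 171 and 0.446 CPM. Over all cells Fcrls stood at 2358 CPM in CTRL and 12.2 CPM in IRF3/7. The macrophage list gave 13 of 23 downward and 1 upward in Myofibrobl (median -2.28), but at a mean of at least 100 CPM its median was 0.084, and the part of macrophage RNA in that count was not tested.

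In cDC2, interferon-regulated genes were higher in IRF3/7, MHC class II genes were close to CTRL, and cell cycle genes and part of the genes that define cDC2 were lower. Of 6684 genes entered, 433 (6.48%) were 2-fold or more higher and 728 (10.9%) were 2-fold or more lower. The median of all genes was -0.21. With size factors the higher genes made up 53.1% of those past the fold in place of 37.3%. All 34 antiviral effectors entered were past the fold upward, with a median log2 ratio of 3.77, as were the 27 with at least 20 CPM in CTRL (median 3.46), and their summed level was 3875 CPM in CTRL, 34039 CPM in IRF3/7, 5403 CPM in COX2i and 9992 CPM in COX2i + 5-AZA. The guanylate-binding and immunity-related GTPases gave 16 of 16 upward, with a median of 3.53, and 10 of 10 among those with at least 20 CPM in CTRL (median 3.34).

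Isg15 in cDC2 stood at 141 CPM in CTRL, 4717 CPM in IRF3/7, 246 CPM in COX2i and 720 CPM in COX2i + 5-AZA (5.07, 4.92 to 5.22). Ifit1 stood at 29.1, 552, 28.9 and 54.9 CPM (4.25, 3.91 to 4.60), so that only IRF3/7 was far from CTRL. It had a UMI in 251 of 390 IRF3/7 cells and 28 of 645 CTRL cells. Slfn4, a Schlafen gene of myeloid cells, had the largest rise, at 2.51 and 1118 CPM (8.80, 7.75 to 10.11). The next 3 by the same rule were Dnase1l3, a secreted nuclease that clears DNA of dead cells (0.718 and 199 CPM, 8.11, 6.25 to 11.17, with 2 CTRL UMIs), Apod (1.44 and 233 CPM, 7.34) and Kdr, the VEGF receptor 2 (2.87 and 198 CPM, 6.11). Cfb, complement factor B, stood at 5.39 and 229 CPM (5.41). Dnase1l3 was as high in COX2i + 5-AZA, at 223 CPM. Oasl1, which restrains translation of Irf7, stood at 10.8 and 408 CPM (5.24).

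Sensors were higher for 14 of 25 cDC2 entries and lower for 1, with a median of 1.33. Tlr7, the endosomal sensor of single-stranded RNA, stood at 7.18 and 120 CPM (4.06), and the p200 gene Ifi205 at 133 and 3213 CPM (4.59), whereas Tlr2 stood at 398 and 160 CPM (-1.31). Irf1 stood at 185 and 1070 CPM (2.53) and Socs1, a feedback inhibitor of JAK kinases, at 28.0 and 227 CPM (3.02). Irf8, a factor of the cDC1 and monocyte lineages, stood at 88.0 and 407 CPM (2.21), and Irf4, a factor of cDC2, at 74.0 and 31.3 CPM (-1.24). Cxcl10 stood at 41.7, 1028, 258 and 531 CPM in the 4 libraries (4.63), and Ccl5 at 15.4, 526, 23.3 and 183 CPM (5.09). Ccl17, a CCR4 ligand, was lower, at 62.1 and 2.29 CPM (-4.76, -7.05 to -3.19, with 3 IRF3/7 UMIs), and so was the neutrophil attractant Cxcl2, at 312 and 60.3 CPM (-2.37).

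Antigen presentation split by class in cDC2. MHC class I genes gave 16 of 21 upward and none downward, with a median of 1.40. H2-K1 stood at 811 and 2286 CPM (1.49, 1.42 to 1.57), Tap1 at 227 and 735 CPM and the non-classical H2-T24 at 12.6 and 399 CPM (4.99). MHC class II genes gave none of 15 upward and 1 downward, with a median of -0.16 that was 0.04 with size factors. H2-Ab1 stood at 19129 and 15243 CPM (-0.33) and Cd74, the invariant chain, at 39030 and 27814 CPM (-0.49). Of the co-stimulation and checkpoint genes 9 of 19 were upward and 1 downward, or 5 and 1 of the 15 with at least 20 CPM in CTRL (median 0.55). Cd40 stood at 36.3 and 399 CPM (3.46), Cd274 at 77.6 and 498 CPM (2.68) and Il18bp, a decoy of interleukin 18, at 21.5 and 280 CPM. Cd86 stood at 493 and 721 CPM (0.55), and Tnfsf4, which encodes OX40L, at 110 and 29.0 CPM (-1.92). Ptgs2 stood at 473, 231, 392 and 585 CPM in the 4 libraries (-1.03, -1.22 to -0.85), so that its direction in cDC2 was opposite to that in Myofibrobl.

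The cDC2 label was checked against its markers. Klrb1b (785 and 846 CPM), Il1r2 (1788 and 1576 CPM), Napsa (466 and 628 CPM) and P2ry10 (420 and 376 CPM) were at similar levels in both libraries. Cd209a (334 and 83.9 CPM, -1.99), Mgl2 (875 and 75.5 CPM, -3.53) and Cd24a (519 and 38.1 CPM, -3.77) were lower in IRF3/7, and Flt3 stood at 46.7 and 29.0 CPM (-0.69). Genes of blood monocytes moved in both directions, with 7 of 20 upward, 5 downward and a median of 0.49. Plac8 stood at 186 and 5242 CPM (4.82), and Ccr2 at 732 and 309 CPM (-1.25). Plac8 had a UMI in 99.0% of IRF3/7 cells and in 19.7% of CTRL cells, and its level in IRF3/7 cDC2 was 98.4% of that in all other cells of the library. For Gzma and Col1a2, which cDC2 should lack, the shares were 2.86% and 2.31%, and for C1qa 9.93%. The part of monocytes within the class was not tested. Cell cycle genes were lower, with 9 of 14 S phase and 10 of 12 G2/M genes past the fold downward and none upward (medians -1.24 and -2.78). Mki67 stood at 122 and 9.92 CPM (-3.62). Among the 10 largest falls were Cd101, an inhibitory receptor (136 and 1.53 CPM, -6.48, with 2 IRF3/7 UMIs), Dcstamp, a fusion protein (308 and 5.34 CPM, -5.85), and Cd34 (245 and 4.58 CPM, -5.74). In the cell death list 5 of 22 were upward and none downward, or 4 of the 21 with at least 20 CPM in CTRL. Mlkl, the effector of necroptosis, stood at 5.39 and 41.9 CPM (2.96) and Daxx at 78.3 and 700 CPM (3.16). Saa3, an acute-phase protein, and Lipg, an endothelial lipase, had no UMI in CTRL and stood at 58.7 and 81.6 CPM in IRF3/7. With the floor of 3 counts per library, Saa3 was at least 54.5-fold and Lipg at least 75.8-fold higher.

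Infl_Mono was a mixture in CTRL. Of its 93 CTRL cells, 42 had a UMI of Fcrls, a macrophage gene, and none of Plac8, a gene of blood monocytes, whereas 37 had Plac8 and no Fcrls, 13 had both and 1 had neither. The share with Fcrls was 59.1% in Infl_Mono (median 4203 UMIs per cell), 95.8% in the macrophage class TAM_C1q (6857), 27.8% in cDC2 (4106) and 36.6% in Myofibrobl (15007.5). Over the same classes its level was 2135, 3765, 80.4 and 171 CPM. Of the 4335 IRF3/7 cells 98.6% had Plac8 and 0.807% had Fcrls. Plac8 UMIs were not limited to the immune classes, and 62.2% of IRF3/7 and 5.23% of CTRL Myofibrobl cells had one. The comparisons of Infl_Mono were therefore repeated with the cells without Fcrls, a choice made after the values were seen. That left 38 CTRL cells with 119580 UMIs and 4300 IRF3/7 cells with 14579897 UMIs. In CTRL the cells without Fcrls were shallower, with a median of 3164 UMIs against 5959 in those with it. A cell may therefore lack an Fcrls UMI through depth. The choice thus removed 55 of 93 CTRL cells and 35 of 4335 IRF3/7 cells, and it changed almost only the CTRL level. Genes that go with Fcrls in the same cells are lower in CTRL by that choice, so their values are a description.

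Of 6355 genes entered in Infl_Mono, 358 (5.63%) were 2-fold or more higher and 679 (10.7%) were 2-fold or more lower, around a median of -0.13. With size factors the higher genes made up 46.8% of those past the fold in place of 34.5%. Without the Fcrls cells 540 were higher and 779 lower, of 6173. The lower genes over all cells included 24 of 30 macrophage genes, with Spp1 at 3500 and 377 CPM (-3.21) and C1qa, a complement component, at 6189 and 1364 CPM (-2.18). Of 23 blood monocyte genes, 7 were higher and 3 lower over all cells (median 0.81). Without the Fcrls cells 4 of them were higher and 7 lower (median -0.27). Of 24 macrophage genes, 10 were lower and 7 higher without the Fcrls cells. Spp1 was still lower (-1.63), and C1qa, which goes with Fcrls in macrophages, was at 326 and 1337 CPM (2.04, 1.58 to 2.53), a change of sign that the choice of cells largely sets.

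Antiviral effectors of Infl_Mono stood at 23884 CPM in CTRL and 38160 CPM in IRF3/7 in sum, and at 24539 and 22652 CPM in COX2i and COX2i + 5-AZA. Without the Fcrls cells the sums were 13915 CPM in CTRL and 38199 CPM in IRF3/7. Over all cells 9 of 34 were past the fold upward and none downward (median 0.64), and without the Fcrls cells 25 of 34 were upward and none downward (median 1.89). Isg15 stood at 2071 and 5545 CPM (1.42, 1.33 to 1.51) and Oasl1 at 349 and 789 CPM (1.18). Without the Fcrls cells they were at 886 and 5554 CPM (2.65, 2.37 to 2.94) and at 151 and 789 CPM (2.39). For the IFIT genes and Rsad2 the choice of cells decided the value. Ifit3 stood at 1534 and 1456 CPM over all cells (-0.08, -0.18 to 0.03) and at 83.6 and 1456 CPM without Fcrls cells (4.12, 3.24 to 5.18). Rsad2 stood at 2705 and 1823 CPM (-0.57) and then at 184 and 1825 CPM (3.31, 2.71 to 3.99). Ifit1 changed from 0.18 to 3.31, and Cmpk2 from -0.48 to 3.28. In CTRL, these genes therefore sat mainly in the cells with Fcrls.

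Slfn4, Ly6a, Cd274 and H2-K1 were 2-fold or more higher in both sets of Infl_Mono cells. Slfn4 stood at 213 and 4185 CPM (4.30, 4.02 to 4.59) over all cells and at 335 and 4197 CPM without Fcrls cells (3.65, 3.20 to 4.13). Ly6a, a surface antigen induced by interferon, stood at 328 and 4210 CPM (3.68) and then at 268 and 4219 CPM (3.98). Cd274 had log2 ratios of 2.42 and 2.40, and H2-K1 of 1.33 and 1.07. Of the 22 MHC class I genes 6 were upward and 2 downward (median 0.78), and 7 and 1 without Fcrls cells (median 0.61). Guanylate-binding and immunity-related GTPases gave 6 of 17 upward and then 8 of 17, and none downward, at a median of 0.77 for both. Gbp2 stood at 966 CPM in CTRL, 1768 in IRF3/7, 2548 in COX2i and 4116 in COX2i + 5-AZA, so that IRF3/7 was not the highest library for it. In the cells without Fcrls, Gbp2 stood at 1522 and 1770 CPM, a log2 ratio of 0.22 (0.01 to 0.44) in place of 0.87.

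MHC class II genes were higher in Infl_Mono, with 6 of 11 upward and 1 downward (median 1.43), and 6 of 11 without Fcrls cells (median 1.10). H2-Ab1 stood at 242 and 1729 CPM (2.84, 2.58 to 3.11) and Cd74 at 1202 and 4949 CPM (2.04). In the cells without Fcrls, H2-Ab1 stood at 301 and 1737 CPM (2.53, 2.06 to 3.04) and Cd74 at 1539 and 4970 CPM (1.69). Ciita, their transactivator, stood at 24.8 and 81.5 CPM (1.72) over all cells and at 75.3 and 81.9 CPM without Fcrls cells (0.12, -0.81 to 1.25). When Monocyte_1 and Monocyte_3 were added to the class, which gave 139 CTRL and 4596 IRF3/7 cells, the median of the class II genes was -0.09, H2-Ab1 was at -0.10 and Cd74 at -0.09. The higher class II level was therefore seen in Infl_Mono as annotated and not in the 3 monocyte classes together. Il1b stood at 828 and 3383 CPM (2.03) and then at 1873 and 3394 CPM (0.86), and Ptgs2 at 145 and 522 CPM (1.85) and then at 226 and 524 CPM (1.21). Beside these, the dissociation and heat shock list stood at 11462 and 21884 CPM in sum over all cells (6 of 20 upward, none downward) and at 18774 and 21923 CPM in the cells without Fcrls (1 upward, 1 downward), and its part in the difference was not tested. Cxcl9, an interferon-γ target, stood at 304 and 252 CPM (-0.27) and then at 1104 and 254 CPM (-2.12), whereas Cxcl10 was higher in both sets (0.88 and 1.08). Ccl5 stood at 302 and 270 CPM (-0.16), and in the cells without Fcrls it had no UMI in CTRL and stood at 270 CPM in IRF3/7.

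**Figure D3:**
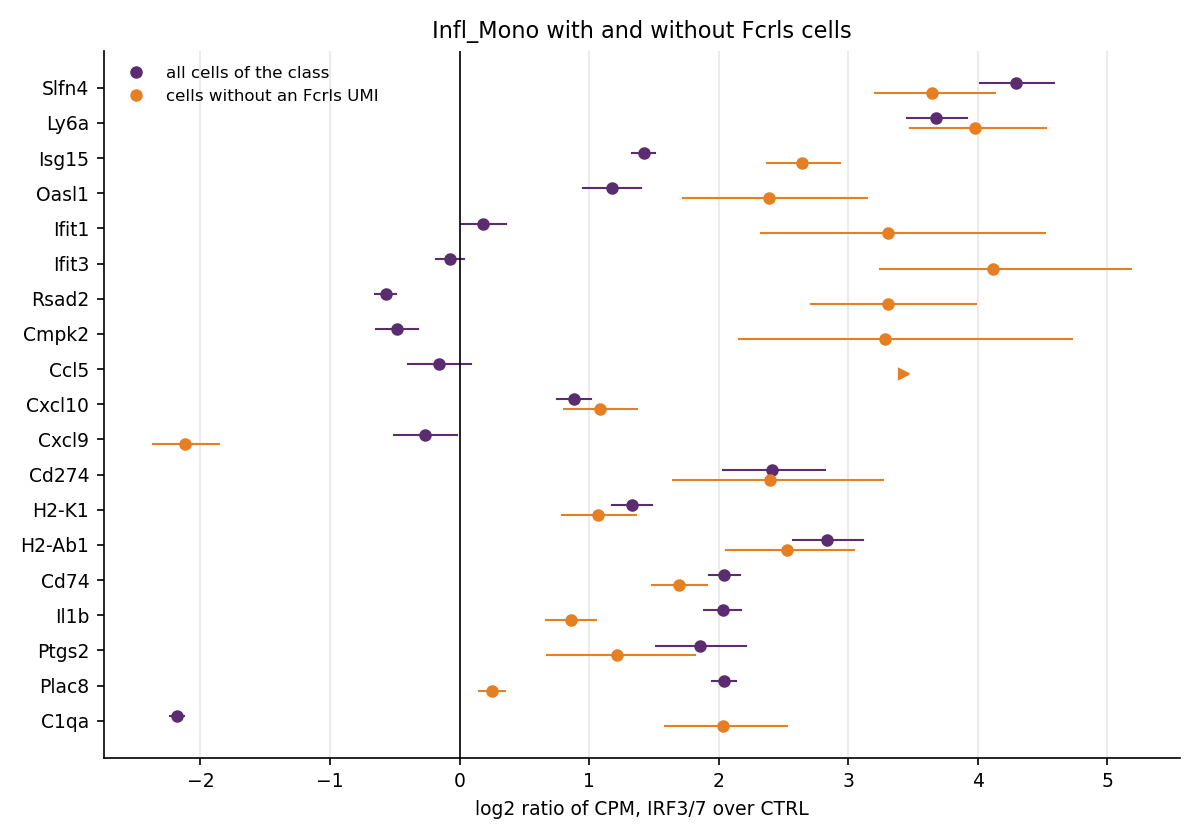
Log2 ratios of CPM, IRF3/7 over CTRL, for named genes in Infl_Mono, over all cells of the class (purple) and over cells without an Fcrls UMI (orange), with lines for exact 95% intervals of counting error and a triangle for a lower bound at 3 counts. Ifit3 moved from -0.08 to 4.12 and C1qa from -2.18 to 2.04, whereas Cd274 stayed at 2.42 and 2.40.

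Across the classes, the medians of antiviral effectors, of guanylate-binding and immunity-related GTPases and of MHC class I genes stood at 4.95, 6.18 and 2.96 in Myofibrobl, at 3.77, 3.53 and 1.40 in cDC2, and at 0.64, 0.77 and 0.78 in Infl_Mono, against -0.26, -0.21 and -0.13 for all genes. Without the Fcrls cells those of Infl_Mono were 1.89, 0.77 and 0.61. The classes differed in their CTRL level, since the summed antiviral effectors stood at 1008 CPM in CTRL Myofibrobl, 3875 in cDC2 and 23884 in Infl_Mono, or 13915 in Infl_Mono without the Fcrls cells. In IRF3/7 they stood at 14962, 34039 and 38160 CPM. In Myofibrobl these medians rest largely on genes that entered through IRF3/7. Because these cells come from the same pair of libraries, the classes are not replicates of each other.

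**Figure D4:**
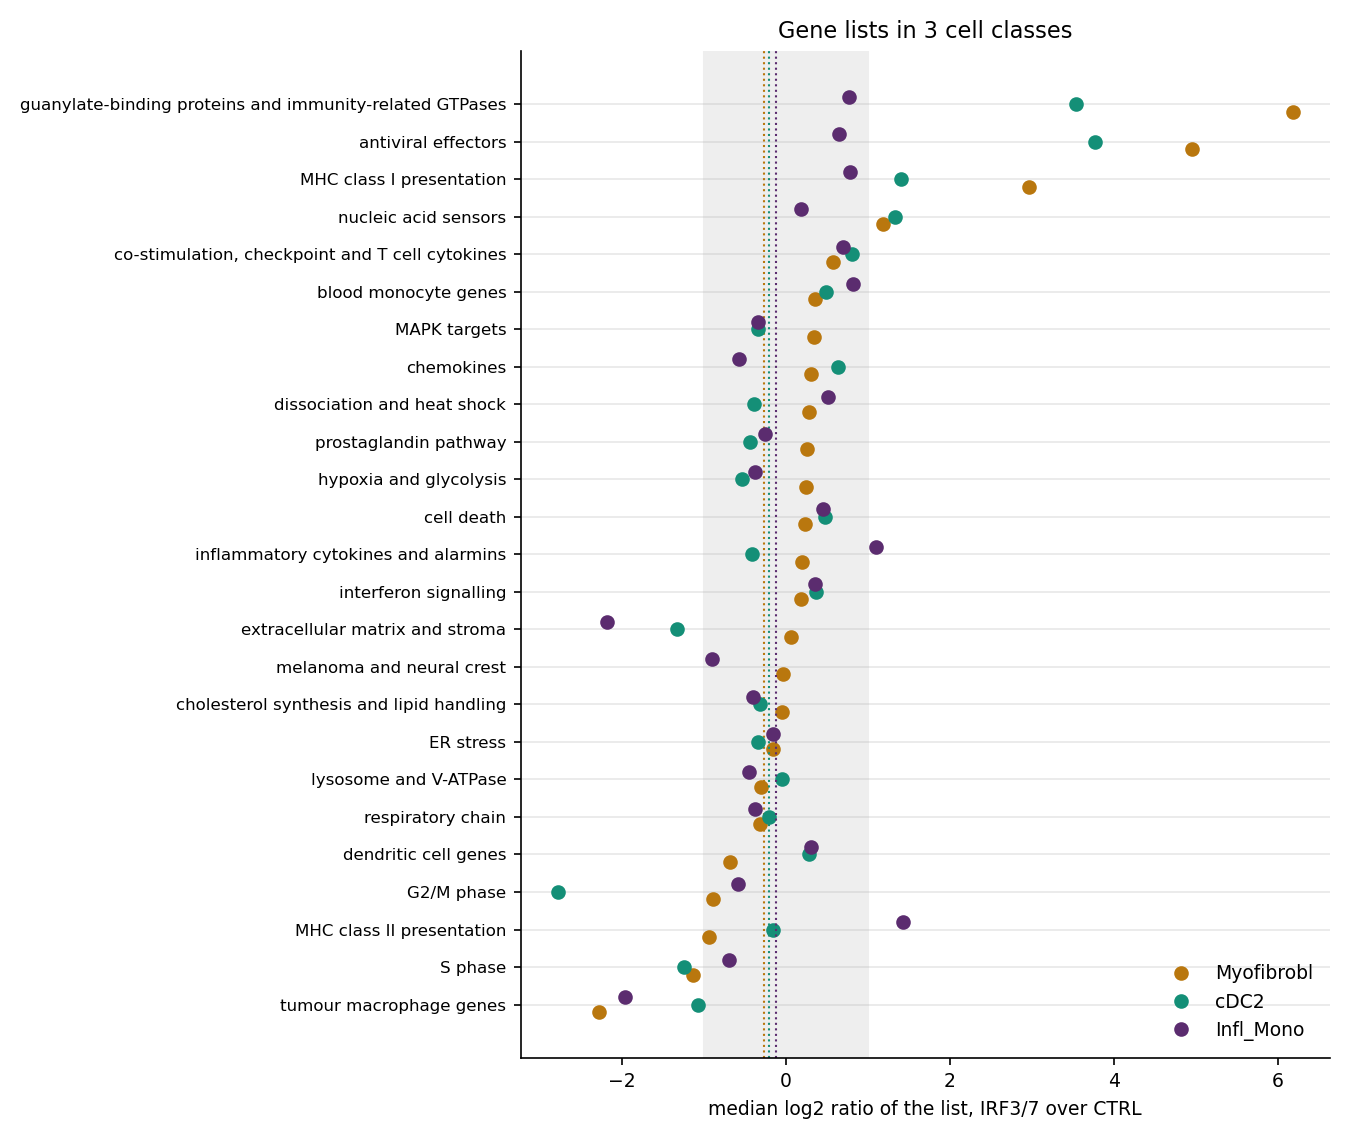
Median log2 ratio, IRF3/7 over CTRL, over the entered genes of each list with at least 5 of them, in Myofibrobl, cDC2 and Infl_Mono; grey marks ratios under 2-fold and dotted lines the median of all genes of each class. Guanylate-binding proteins and antiviral effectors stood at 6.18 and 4.95 in Myofibrobl, and the macrophage list at -2.28, which was 0.084 at a mean of at least 100 CPM.

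Classes with fewer cells gave the same direction for the summed antiviral effectors, as a description. NK_cells stood at 1695 CPM (11 CTRL cells) and 12232 CPM (568 IRF3/7 cells), cDC1 at 2719 and 21631 CPM (16 and 38 cells) and Neutro at 3786 and 38574 CPM (65 and 49 cells). DC3 stood at 8187 and 27013 CPM (10 and 66 cells), TAM_H2Ab1 at 14171 and 25171 CPM (19 and 385 cells) and Monocyte_1 at 12524 and 22540 CPM (44 and 251 cells). The IRF3/7 level lay above the CTRL level in each of these classes, and the ratio was smallest in TAM_H2Ab1 and Monocyte_1, where CTRL was highest.

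**Figure D5:**
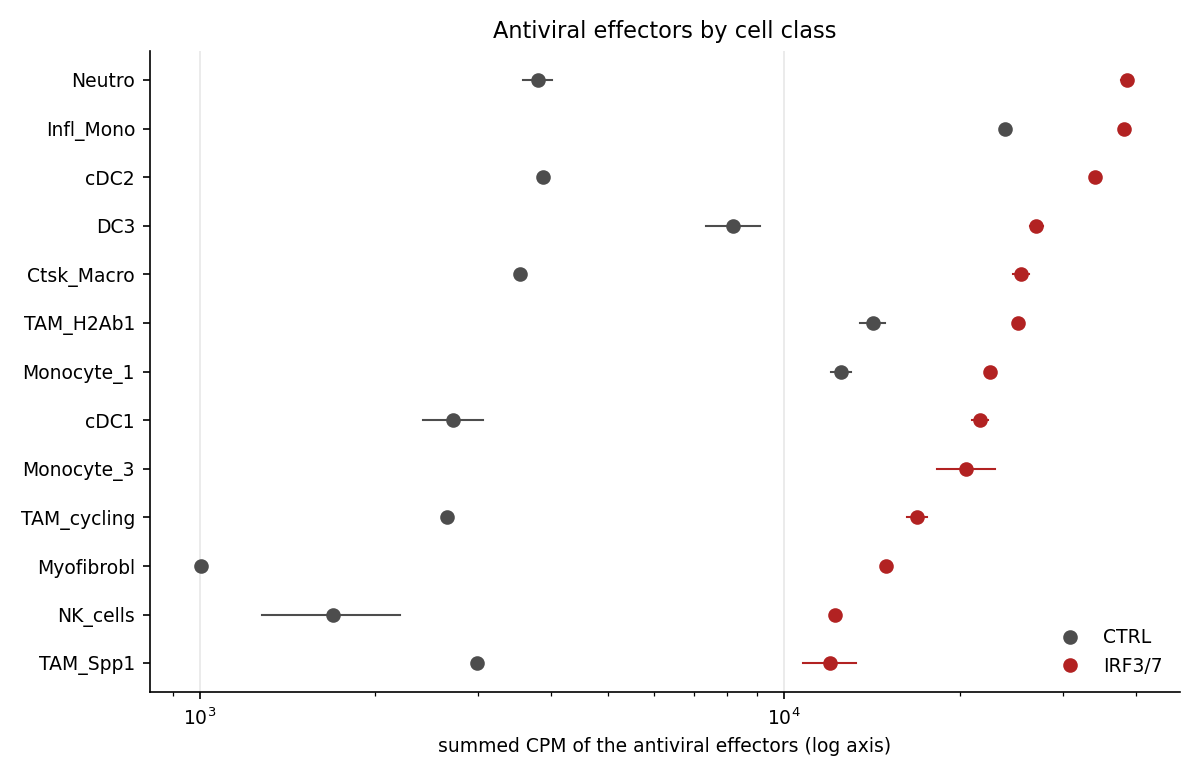
Summed CPM of the antiviral effectors (log axis) in each class with at least 10 cells in a library, CTRL in grey and IRF3/7 in red, with lines for exact Poisson 95% intervals. IRF3/7 lay above CTRL in each class drawn for both libraries, from 14962 against 1008 CPM in Myofibrobl to 38160 against 23884 CPM in Infl_Mono.

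The promoter element shown above was counted over the whole 300 bases of each window, and 3.99% of 27025 genes with a window held it. Among genes entered the share was 4.04% of 6120 in Myofibrobl, 4.52% of 5420 in cDC2 and 4.77% of 5132 in Infl_Mono. Among genes 2-fold or more higher it was 18.5% of 302, 21.9% of 347 and 10.3% of 281, with exact intervals of 14.3 to 23.4, 17.7 to 26.6 and 7.02 to 14.5. Among genes 8-fold or more higher it was 44.6% of 83, 43.1% of 72 and 15.4% of 13, with intervals of 33.7 to 55.9, 31.4 to 55.3 and 1.92 to 45.4. The last share rests on 2 genes, and its interval includes the share among all genes entered. In Infl_Mono without the Fcrls cells it was 11.8% of 431 genes 2-fold or more higher (8.94 to 15.3). Among genes 2-fold or more lower it was 2.78% of 431 in Myofibrobl and 4.14% of 531 in Infl_Mono, and 21 of 567 held it in cDC2. The element was thus more frequent among the higher genes, and near its share among all genes in the lower ones. The element is known from interferon-regulated genes, which were among the higher genes, so the share is not separate evidence.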

How the data were processed

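CD45+ cells of 4 libraries were measured with fixed-RNA probe kits, in which pairs of probes stand for each gene. The authors deposited raw UMI counts per cell for 12584 genes and 34447 cells, made with Cell Ranger 7.1.0 on mm10 and filtered by them on genes and on ribosomal and mitochondrial reads, together with their class for each cell. Here UMIs were summed per library and class and scaled to CPM. A count of 0 was set to 3 counts per library for a bound. Intervals (exact conditional for ratios, Clopper-Pearson for shares, exact Poisson for sums, each at 95%) cover counting error only. No doublet caller was run here, and how the authors treated doublets is not given in the sources used here. The scripts were tested on simulated data. Software was Python 3.11.15, numpy 2.4.6, scipy 1.17.1 and pandas 2.3.3.

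The members and the 26 gene lists were chosen with earlier results of these data known. Genes were named by rule, namely 32 fixed genes, the 10 largest rises and falls per class (at least 50 CPM in the higher library and 200 UMIs in both together), up to 4 members of each list with the largest ratios, members against their list's median, and class markers. Of the listed genes, 21, among them Ifnb1 and Mx1, were not analysed here. A total of 11 alternatives were planned, and 2 (without cells in shared droplets, and without Infl_Mono cells with an Fcrls UMI) were chosen after seeing the data. The libraries held 26356819 (IRF3/7) and 67891118 (CTRL) UMIs. Some items are not reported here.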

Additional observations from a re-analysis of the deposited data

How the results depend on the processing

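No paired analysis was possible because each group was 1 library. Of the values of single genes named, 1027 were counted as unchanged, 378 as moved and 4 as reversed. Of the list medians 698 kept their side of 2-fold, 22 came to exceed it, 17 came to fall short of it and 2 were counted as reversed. These counts of reversals do not hold every change of sign. Without the Fcrls cells Ifit3, Rsad2, Cmpk2 and Ccl5 of Infl_Mono also changed sign. The values counted as reversed, the gene counts that moved by over 1.5 times and some of the list medians are given here. The cause was not tested except where a filter keeps fewer or more genes. In Infl_Mono without the Fcrls cells, the chemokine median went from -0.57 to 1.05 and the blood monocyte median from 0.81 to -0.27. Other medians changed sign there too, among them those of interferon signalling and MAPK targets. At a mean of at least 5 CPM, which lets in more low genes, the lower genes numbered 1522 in Infl_Mono, 982 in Myofibrobl and 1499 in cDC2. At a mean of at least 100 CPM, higher and lower genes numbered 175 and 152 in Infl_Mono, 183 and 128 in Myofibrobl and 243 and 153 in cDC2, and the macrophage list of Myofibrobl had a median log2 ratio of 0.084. In Myofibrobl the lower genes numbered 255 with median-of-ratios size factors and 865 with cells thinned to 1500 UMIs. In Infl_Mono the median of MHC class II genes was 0.99 in thinned cells, 0.95 as a mean over cells, 0.84 without cells that held a UMI of another lineage, and -0.091 with the 3 monocyte classes together. In the last setting H2-Ab1 was at -0.10 and Cd74 at -0.091. Without cells with a UMI of another lineage (3317 IRF3/7 and 48 CTRL cells), the antiviral and guanylate-binding medians of Infl_Mono were 1.19 and 1.15. Without cells with Fcrls, 540 genes were higher, the antiviral median was 1.89, and C1qa was at 2.04. Without such other-lineage cells in Myofibrobl (52 IRF3/7 and 184 CTRL cells), Tyrobp was at 1.14. Among cells with more than 2000 genes, Infl_Mono made up 50.7% of IRF3/7 and 0.653% of CTRL, Myofibrobl 10.5% and 7.56%, and cDC2 4.66% and 5.12%. Without the non-immune class in the total Infl_Mono made up 70.4% of IRF3/7. The shallower IRF3/7 library and the 93 CTRL cells of Infl_Mono limit precision.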
